A study of Mus musculus with 12 samples.

Results

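Ribosome biogenesis factors are the proteins that build ribosomes without being part of the finished particle. A set of 42 such genes was chosen by gene name, with earlier results of these data known. It was followed in mouse B cells through antigen receptor crosslinking with and without a block to calmodulin control of the transcription factor E12. Of the 42 genes, 40 had a probe that carried their name, Fbl and Ddx18 had none, and 34 were detected and tested among 10050 genes. Dkc1, Utp18, Utp20, Bysl, Wdr12 and Nop16 had a named probe but did not pass the detection limit on the required 3 arrays. The 34 tested genes were read by 55 of the 19715 detected probes, and the brightest probe stands for each gene unless another is named.

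RNA of B cells from the spleens of 8-week-old C57BL/6 mice was measured on Illumina bead arrays. All animals were heterozygous for a deletion of the E2A gene (also called Tcf3), so all 4 groups lack 1 endogenous copy. After activation with CD40L and IL-4 the cells were infected in culture, in medium that also held LPS, with a retrovirus. The virus expressed GFP and either form of E12, a protein made from E2A, and GFP-positive cells were sorted. The 4 groups of 3 arrays were mutant E12 with 3 h of anti-IgM (2.5 μg/ml), untreated mutant E12, wild-type E12 with the same anti-IgM, and untreated wild-type E12. By the study's title the mutant resists calmodulin, the calcium sensor that acts downstream of the B cell receptor. The form labelled wild-type is thus also expressed from a virus, at a level set by the vector. No labels say whether the 3 arrays of a group came from separate animals or cultures, so the p-values measure the spread between these arrays, which may be technical.

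Ribosome synthesis starts in the nucleolus, where RNA polymerase I copies ribosomal DNA into a long precursor RNA. Small nucleolar ribonucleoproteins (snoRNPs) guide chemical modification of that RNA, the small subunit processome and later factors fold and trim the small subunit, and a separate set of factors assembles the large subunit. Resting lymphocytes make few ribosomes, and cells that prepare to divide after antigen recognition raise this production, a program that the transcription factor MYC is well known to drive.

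MYC with its partner MAX binds the letters CACGTG, one form of the E-box, while E2A proteins bind other E-boxes, which share the pattern CANNTG. The window from 250 bases before to 50 bases after the start site was available from RefSeq (GRCm38.p6) for 37 of the 42 members. CACGTG, searched on both strands, lay in 7 of the 37 windows (18.9%), against 2187 of 27025 genes with a window (8.09%). CAGGTG, read on either strand (CACCTG on the other), lay in 1 of the 37 (2.7%) against 22.6% of all genes, and CAGCTG in 6 (16.2%) against 18.3%. None of these letter patterns overlaps another. The windows of the 5 tested members with CACGTG follow, with that motif and any CAGCTG in capitals, and after them those of Nop56 and Nop58, the tested members without CACGTG whose RNA changed most in wild-type E12 cells. They are shown because these genes moved together in the arrays, and a match is a description of the letters only.
Nop2, chr6:125131633-125131932, plus strand: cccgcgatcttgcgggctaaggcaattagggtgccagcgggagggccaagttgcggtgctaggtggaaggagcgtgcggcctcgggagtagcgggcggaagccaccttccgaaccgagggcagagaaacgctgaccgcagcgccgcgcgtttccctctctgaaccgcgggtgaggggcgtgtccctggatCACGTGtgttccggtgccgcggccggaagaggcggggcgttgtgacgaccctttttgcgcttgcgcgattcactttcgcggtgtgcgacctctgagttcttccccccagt
Wdr43, chr17:71615965-71616264, plus strand: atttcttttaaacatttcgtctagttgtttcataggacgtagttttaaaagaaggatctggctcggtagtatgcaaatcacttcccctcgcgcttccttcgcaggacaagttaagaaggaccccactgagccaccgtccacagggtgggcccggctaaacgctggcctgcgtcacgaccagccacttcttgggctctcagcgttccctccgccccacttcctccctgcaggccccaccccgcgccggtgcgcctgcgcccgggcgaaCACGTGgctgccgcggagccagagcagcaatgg
Tsr1, chr11:74897830-74898129, plus strand: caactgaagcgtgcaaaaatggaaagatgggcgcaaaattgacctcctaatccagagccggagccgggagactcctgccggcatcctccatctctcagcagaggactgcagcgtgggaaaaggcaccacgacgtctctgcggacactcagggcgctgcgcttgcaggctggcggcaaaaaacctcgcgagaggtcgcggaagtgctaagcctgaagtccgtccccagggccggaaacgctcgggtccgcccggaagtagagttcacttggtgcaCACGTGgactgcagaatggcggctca
Ltv1, chr10:13193088-13193387, minus strand: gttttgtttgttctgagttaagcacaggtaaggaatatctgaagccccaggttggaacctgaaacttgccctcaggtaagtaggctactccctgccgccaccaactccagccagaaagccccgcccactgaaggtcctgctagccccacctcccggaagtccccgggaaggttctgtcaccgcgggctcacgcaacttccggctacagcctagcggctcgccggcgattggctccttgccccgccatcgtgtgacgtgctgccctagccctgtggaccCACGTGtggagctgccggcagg
Pes1, chr11:3963725-3964024, plus strand: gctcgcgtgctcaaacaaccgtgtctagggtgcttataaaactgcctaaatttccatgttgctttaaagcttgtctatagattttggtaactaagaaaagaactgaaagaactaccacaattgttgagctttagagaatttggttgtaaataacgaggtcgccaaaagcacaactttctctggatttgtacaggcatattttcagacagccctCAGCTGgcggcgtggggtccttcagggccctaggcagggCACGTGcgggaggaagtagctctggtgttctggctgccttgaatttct
Nop56, chr2:130274162-130274461, plus strand: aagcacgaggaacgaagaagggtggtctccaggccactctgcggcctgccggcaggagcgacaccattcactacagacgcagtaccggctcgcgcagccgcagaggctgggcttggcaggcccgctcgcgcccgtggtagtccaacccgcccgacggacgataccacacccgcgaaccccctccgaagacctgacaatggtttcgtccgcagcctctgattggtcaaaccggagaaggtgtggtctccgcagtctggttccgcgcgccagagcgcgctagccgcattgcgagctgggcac
Nop58, chr1:59684756-59685055, plus strand: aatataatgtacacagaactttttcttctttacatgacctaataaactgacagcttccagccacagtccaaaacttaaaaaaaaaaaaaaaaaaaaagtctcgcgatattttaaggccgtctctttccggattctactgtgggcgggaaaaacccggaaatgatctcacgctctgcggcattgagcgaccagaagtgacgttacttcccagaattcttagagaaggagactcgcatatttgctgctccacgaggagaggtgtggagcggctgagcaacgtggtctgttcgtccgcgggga
The CACGTG began 60 bases before the start site in Nop2, and 18, 25, 29 and 3 bases after it in Wdr43, Tsr1, Ltv1 and Pes1. Pes1 also held CAGCTG from position -37.

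Levels are given as log2(intensity + 50) after all 12 arrays were normalized together, and a change is a difference of group means on that scale with the standard error (SE) of the fit, from 3 arrays a group. A gene is said to have risen or fallen when limma's adjusted p, by Benjamini-Hochberg over the 10050 genes, was under 0.05. Of the 34 tested members 32 were above the detection limit on all 12 arrays, as were 73.7% of all genes tested. The exceptions were Nolc1, detected on 7 arrays, and Rrs1, detected on all 3 wild-type arrays with anti-IgM and on 2 untreated wild-type arrays but on 0 of the 6 mutant arrays. The limit was higher on mutant arrays (15.6 to 15.7 intensity units against 12.9). The Rrs1 mean was 5.95 both in untreated wild-type cells and in mutant cells with anti-IgM. Rrs1 passed the filter through wild-type arrays alone, so its changes are no independent support, though it is counted with the 34 members below. Arrays of a group correlated at 0.978 or more across genes.

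Tcf3 itself was higher on each of the mutant arrays than on the wild-type arrays. It had 11.27, 12.79 and 12.54 in mutant E12 cells with anti-IgM, against 11.17, 10.45 and 10.34 in wild-type E12 cells with anti-IgM. In untreated cells it had 11.90, 12.31 and 12.93 with mutant E12, against 10.50, 10.61 and 11.01 with wild-type E12. Tcf3 signal therefore differed between the forms along with the mutation, and their parts in the results cannot be told apart. How far the probe reads the retroviral copy is not known here. Of the B cell markers 7 were detected, while Cd3d, Cd3e and Cd3g, which encode parts of the T cell receptor complex, were not. Another 3 T cell markers were detected, with summed signals of 844 to 2176 over the 12 arrays. The B cell marker Pax5 was not detected either.

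Averaged over the 34 members, the arrays fell into a clear order. Relative to each gene's mean over the 12 arrays, the average member stood at 0.09, -0.21 and 0.10 in mutant E12 cells with anti-IgM and at -0.31, -0.53 and -0.58 in untreated mutant E12 cells. In wild-type E12 cells it stood at 1.00, 0.90 and 0.91 with anti-IgM, against -0.49, -0.44 and -0.45 untreated. The untreated arrays of both forms thus overlapped, the anti-IgM arrays of both forms lay above their own untreated arrays, and the wild-type arrays with anti-IgM stood well above the rest. For 30 of the 34 members all 3 wild-type arrays with anti-IgM were higher than each of the other 9 arrays, which was so for 12.3% of all genes. The 4 others were Nolc1, Polr1c, Nob1 and Bop1.

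**Figure D1:**
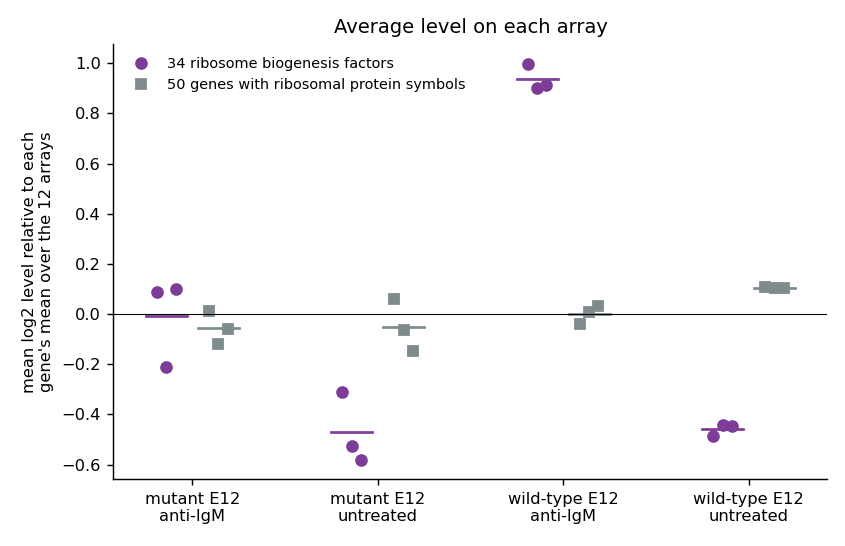
Mean log2 level on each array, relative to each gene's mean over the 12 arrays, for the 34 ribosome biogenesis factors (circles) and the 50 genes with ribosomal protein symbols (squares). Points are arrays and short lines are group means. The factors reach 0.90 to 1.00 on the wild-type E12 arrays with anti-IgM and -0.21 to 0.10 on the mutant E12 arrays with anti-IgM, while the ribosomal protein genes stay between -0.15 and 0.11.

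In wild-type E12 cells 3 h of anti-IgM raised nearly the whole set. Of the 34 members 32 rose and 0 fell, where 15.1% of all genes rose and 16.2% fell, and the median change was 1.48 against -0.02 over all genes. The 3 treated arrays lay above the 3 untreated arrays for 32 members, against 23.7% of all genes. The exceptions, Polr1c and Nolc1, were also the members whose arrays overlapped. In bulk RNA from a sorted population, a higher signal in each cell and a larger share of responding cells cannot be told apart. Of the 7 tested B cell markers 3 fell (Cd22, Cd79b and Ms4a1) and 0 rose over the same hours, their summed signal spanning 68550 to 71373 intensity units with anti-IgM and 70552 to 88850 untreated. The 7 tested myeloid markers summed to 833 to 1204 with anti-IgM and 1017 to 2842 untreated, with Itgam and Csf1r not detected. The 2 tested natural killer and cytotoxic genes, Nkg7 and Prf1, summed to 1492 to 1999 with anti-IgM and 3808 to 5857 untreated, Prf1 having fallen, with Ncr1 not detected. The part of these shifts in the result was not tested. The highest myeloid sum was on untreated wild-type replicate 1, and without that array 31 members rose, with a median of 1.46.

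The box C/D snoRNP proteins, which carry the methylation machinery of ribosomal RNA, had the highest median change of any role, 2.21 over the 3 tested. Nop56, a core protein of these particles, had 11.61, 11.69 and 11.69 with anti-IgM, against 8.91, 9.23 and 9.36 untreated. It rose by 2.49 ± 0.18 (SE; adjusted p = 5.11e-07), the largest change of any member. Nop58, its partner in the same core, had 11.87, 11.65 and 11.78 against 9.48, 9.26 and 9.93 and rose by 2.21 ± 0.20 (SE; adjusted p = 2.52e-06). Both sets of arrays are far apart relative to their spread. Rrp9, a protein specific to the U3 particle that directs early cleavage of the precursor, had 10.14, 9.91 and 9.84 with anti-IgM, against 7.52, 7.92 and 8.03 untreated, a rise of 2.14 ± 0.21.

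The box H/ACA proteins Gar1 and Nhp2, core parts of the particles that guide pseudouridylation, rose as well. Gar1 had 12.62, 12.82 and 12.63 with anti-IgM, against 10.68, 11.21 and 11.20 untreated, and Nhp2 had 13.04, 13.17 and 13.06 against 11.27, 11.53 and 11.73. Their changes were 1.66 ± 0.18 and 1.58 ± 0.22, and neither gene's groups overlapped. A second, dimmer Nhp2 probe gave 0.63.

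The nucleolar chaperones and scaffold proteins were uneven, from 0.09 to 1.74, with a median of 0.75 over 4 genes. Gnl3 (nucleostemin), a nucleolar GTP-binding protein, had 13.31, 13.04 and 13.26 with anti-IgM, against 11.73, 11.29 and 11.37 untreated, and rose by 1.74 ± 0.19 (SE; adjusted p = 1.15e-05). Nucleolin (Ncl), an abundant RNA-binding protein of the nucleolus, rose by 1.06 ± 0.18. Npm1 (nucleophosmin), a histone and ribosome chaperone, had 14.71, 14.73 and 14.65 against 14.17, 14.32 and 14.24, a small rise of 0.45 ± 0.16 (SE; adjusted p = 0.0462) whose arrays did not overlap and whose call was lost under 10 of the alternatives run. Nolc1, which binds snoRNPs on their way to the nucleolus, was near the detection limit. It had 6.18, 6.00 and 6.20 with anti-IgM, against 5.65, 6.02 and 6.43 untreated, groups that overlapped, and its difference of 0.09 ± 0.17 (SE; adjusted p = 0.741) did not pass.

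The RNA polymerase I subunits split. Polr1b, the second-largest subunit, had 9.88, 9.27 and 9.31 with anti-IgM, against 7.90, 7.45 and 7.67 untreated, and rose by 1.81 ± 0.18 (SE; adjusted p = 7.42e-06). The largest subunit, Polr1a, rose by 1.23 ± 0.15, and its 3 other detected probes gave 0.87 to 0.97. Polr1c, a subunit that RNA polymerase I shares with RNA polymerase III, had 9.57, 9.43 and 9.42 against 9.85, 9.41 and 9.50. Those arrays interleave, and the difference of -0.12 ± 0.22 (SE; adjusted p = 0.743) did not pass.

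All 6 tested proteins of the small subunit processome rose, by 1.16 to 1.91 with a median of 1.38. Pwp2, a scaffold WD-repeat protein of the UTP-B complex, had 9.79, 9.66 and 9.41 with anti-IgM, against 7.56, 7.87 and 7.70 untreated, and rose by 1.91 ± 0.13 (SE; adjusted p = 4.45e-07). Heatr1, Wdr43 and Wdr75, which belong to the complex that also links the processome to transcription, rose by 1.73, 1.44 and 1.16. Wdr75 had the smallest change of the group, with 10.81, 10.72 and 10.73 against 10.07, 9.42 and 9.31, and its arrays still did not overlap. Nop14 and Noc4l, which form a complex in yeast, rose by 1.29 and 1.33.

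All 4 tested factors of late small subunit maturation rose, with a median of 1.06. Rrp12, an export and assembly factor known from yeast, had 11.08, 10.88 and 11.01 with anti-IgM, against 9.67, 9.47 and 9.27 untreated, and rose by 1.52 ± 0.13 (SE; adjusted p = 1.93e-06). Nob1, the nuclease that makes the final cut at the end of 18S ribosomal RNA, had 10.17, 10.08 and 10.19 against 9.30, 9.44 and 9.21, a rise of 0.82 ± 0.16 (SE; adjusted p = 0.00132). Ltv1, a small subunit assembly factor, rose by 0.83. Tsr1, a GTPase-like factor of the cytoplasmic precursor, rose by 1.30 on the brighter probe at the group means of 8.21 ± 0.11 with anti-IgM and 6.91 ± 0.05 untreated (SD), while its second probe gave -0.17 (adjusted p = 0.43 in the fit over all probes). Tsr1 was the only member with a second probe of the opposite sign in this comparison.

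All 11 tested large subunit assembly factors rose, with a median of 1.74. Ebna1bp2, a nucleolar factor whose yeast counterpart is needed for the large subunit, had 11.10, 11.18 and 11.18 with anti-IgM, against 8.62, 9.39 and 9.32 untreated, and rose by 2.05 ± 0.20 (SE; adjusted p = 5.70e-06). Nop2, a cytosine methyltransferase of large subunit RNA, had 9.94, 9.71 and 9.61 against 7.43, 7.95 and 7.77 and rose by 2.04 ± 0.17 (SE; adjusted p = 1.74e-06). Treated and untreated arrays are separated by well over the spread in both genes. Wdr74, which works with the ATPase Nvl in releasing factors from the precursor, had 11.08, 10.85 and 11.06 against 8.92, 9.37 and 9.47, a rise of 1.74 ± 0.24. Nip7, Rrp1b, Ppan and Mrto4, all nucleolar factors of the large subunit precursor, rose by 1.83, 1.74, 1.74 and 1.61, and Noc2l by 1.12. Pes1 and Bop1, partners in the PeBoW complex with the undetected Wdr12, rose by 0.74 and 1.23. Rrs1, which in yeast brings the 5S particle to the subunit, was the dimmest, with 6.49, 6.63 and 6.52 against 6.05, 5.98 and 5.83 and a rise of 0.59, close enough to the offset of 50 that its change is compressed.

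The helicase Ddx21, which unwinds RNA in the nucleolus and acts on both RNA polymerase I transcription and processing, had 11.08, 10.84 and 10.87 with anti-IgM, against 9.74, 9.65 and 9.35 untreated. It rose by 1.35 ± 0.16 (SE; adjusted p = 2.92e-05), and a second probe gave 1.22. Over all 55 member probes 50 rose and 0 fell, where 13.9% of the 19715 detected probes rose and 13.1% fell.

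**Figure D2:**
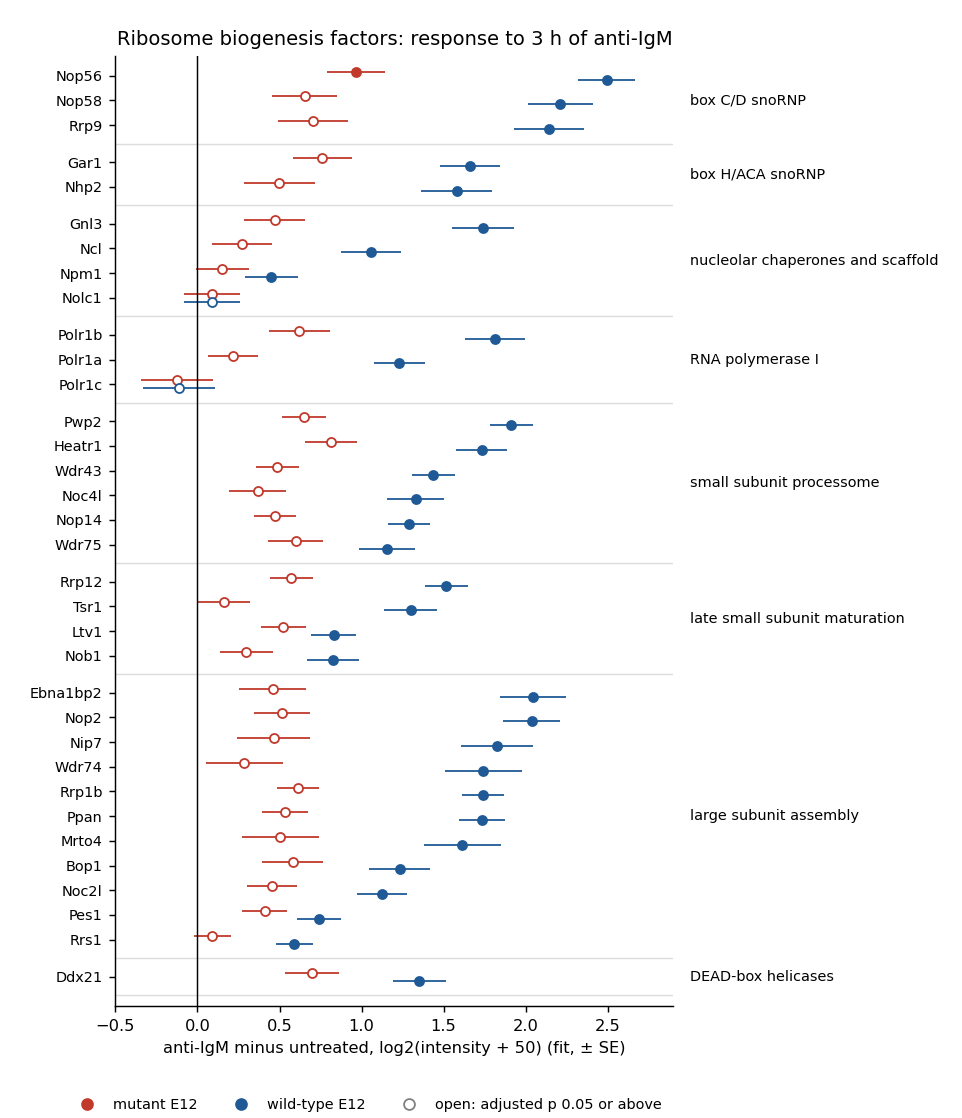
Log2 change with 3 h of anti-IgM for the 34 tested factors, grouped by role, in mutant E12 cells (red) and wild-type E12 cells (blue), with bars of 1 SE from the fit over 12 arrays. Filled points passed an adjusted p of 0.05: Nop56 for mutant E12 and 32 factors for wild-type E12. Rrs1 was not above the detection limit on the mutant arrays.

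In mutant E12 cells the values with the same treatment lay mostly on the same side of 0, and 1 member passed the test. The median change was 0.49 against -0.01 over all genes, and 33 of 34 members had a positive value, as had 48.9% of all genes. Rrs1, which was near background on these arrays, is among the 33. Only Nop56 passed the test, where 0.189% of all genes rose and 0.0398% fell. At an unadjusted p under 0.05, 23 members were higher and 0 lower, against 5.31% of all genes higher. The treated arrays lay above the untreated arrays for 19 members, against 6.59% of all genes. How many members pass depends on the setting. The count was 18 with arrays weighted by their quality, where 3.98% of all genes were called higher, and 6 without untreated wild-type replicate 1, where 0.434% were. That array is in neither group compared and enters through the joint normalization, the detection filter and the shared estimate of spread. The call of Nop56 was absent with an offset of 16 or 100, and without any 1 of 9 of the 12 arrays (adjusted p from 0.0519 to 0.248 with changes of 0.84 to 0.98). It was kept without mutant replicate 2 with anti-IgM, untreated mutant replicate 1 or untreated wild-type replicate 1.

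Nop56 had 10.27, 9.73 and 10.26 with anti-IgM, against 9.43, 8.88 and 9.05 in untreated mutant E12 cells, and rose by 0.97 ± 0.18 (SE; adjusted p = 0.0376). Nop58 had 10.13, 9.88 and 10.52 against 9.20, 9.70 and 9.68 and Rrp9 had 9.17, 8.44 and 8.70 against 8.30, 8.27 and 7.61. In these 3 genes the mutant arrays separated by treatment, with changes of 0.65 ± 0.20 for Nop58 and 0.71 ± 0.21 for Rrp9 that did not pass the adjusted test (adjusted p = 0.22 and 0.22). Gar1 had 11.58, 11.92 and 12.02 against 11.41, 10.79 and 11.03, apart again, and Nhp2 had 12.54, 11.65 and 11.95 against 11.84, 11.66 and 11.13, where replicate 2 with anti-IgM lay below untreated replicates 1 and 2.

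Among the chaperones the mutant arrays overlapped. Gnl3 had 11.54, 11.64 and 12.06 with anti-IgM, against 11.03, 11.12 and 11.68 untreated. Npm1 had 13.49, 13.17 and 13.90 against 13.33, 13.21 and 13.56, and Nolc1 had 5.92, 6.05 and 5.98 against 5.92, 6.09 and 5.69. Their values of 0.47, 0.15 and 0.09 did not pass. Of the polymerase subunits, Polr1b had 8.03, 7.74 and 8.30 against 7.56, 7.33 and 7.31, which do not overlap, and Polr1c had 9.995, 9.20 and 9.37 against 10.06, 9.66 and 9.22, which do.

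Of the processome proteins, Pwp2 had 7.91, 7.75 and 7.93 with anti-IgM, against 7.29, 7.28 and 7.07 untreated, and Wdr75 had 9.85, 9.74 and 10.05 against 9.16, 9.32 and 9.37. Both genes separated by treatment, with changes of 0.65 (adjusted p = 0.0584) and 0.60 (adjusted p = 0.193). Heatr1 had the second-largest value of all members, 0.81 ± 0.16 (adjusted p = 0.0548). Rrp12 had 9.25, 9.26 and 9.53 against 8.79, 8.70 and 8.84, with no overlap, whereas Nob1, with 10.15, 9.64 and 9.70 against 9.80, 9.55 and 9.25, overlapped.

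Among the large subunit factors, Ebna1bp2 had 10.14, 9.47 and 10.04 with anti-IgM, against 9.59, 9.29 and 9.40 untreated, and Wdr74 had 10.21, 9.43 and 9.95 against 10.12, 9.42 and 9.19. Both overlapped, while Nop2, with 8.58, 8.02 and 8.25 against 7.93, 7.81 and 7.56, separated narrowly. Rrs1 had 5.95, 5.97 and 5.94 against 5.98, 5.74 and 5.86, not well above background on any of these arrays, so no change is given for it. Ddx21 had 9.30, 9.13 and 9.78 against 8.69, 8.63 and 8.80, apart by 0.70 ± 0.16 (adjusted p = 0.107).

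**Figure D3:**
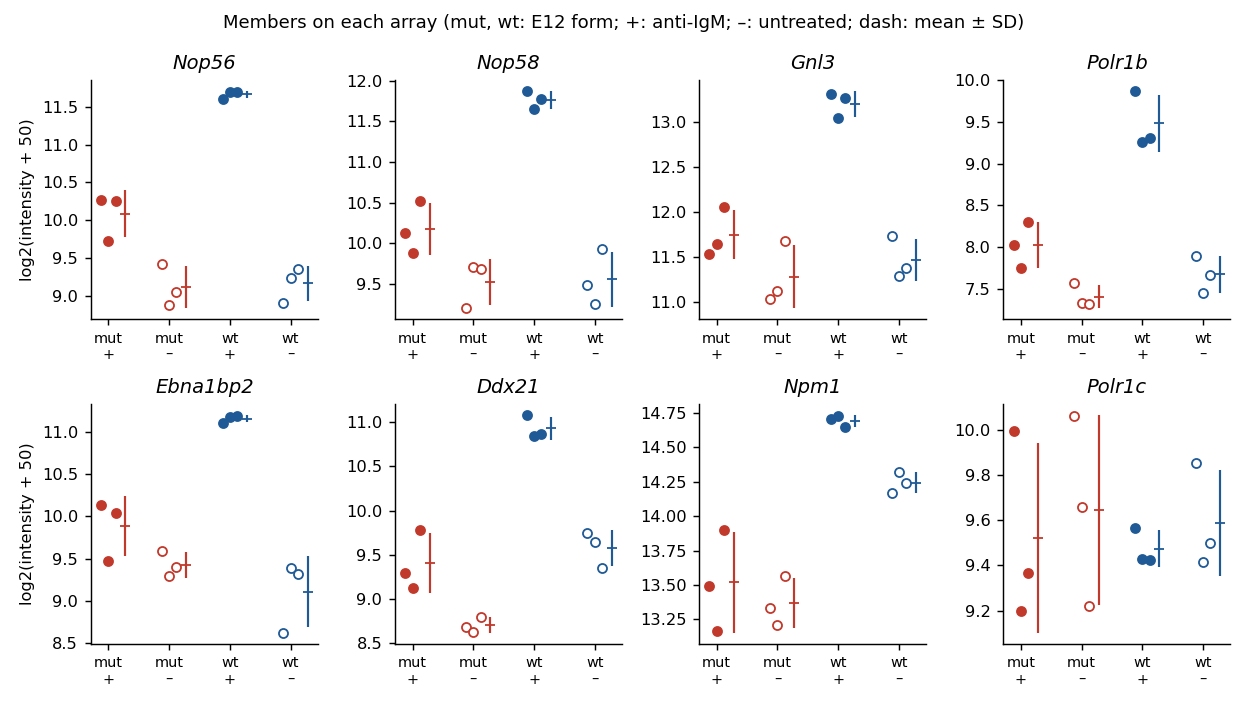
Log2(intensity + 50) of 8 factors on each array, with mutant E12 in red and wild-type E12 in blue, anti-IgM (+) as filled points and untreated (–) as open points, and mean ± SD beside each group of 3. In all but Polr1c the wild-type arrays with anti-IgM are the highest, and the Polr1c groups overlap.

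The response itself was smaller with mutant E12, as tested by the interaction term, which is the mutant response minus the wild-type response. Of the 34 members 20 had a significantly smaller response with mutant E12 and 0 a larger one, where 3.46% of all genes were called negative and 3.48% positive. The value was negative for all 34 members, while 50.9% of all genes had a positive one, with a median of -0.96 against 0.01 over all genes. At an unadjusted p under 0.05 it was negative for 29, against 10.2% of all genes. These counts include Rrs1, which was near background on the mutant arrays. Over the 32 members detected on all 12 arrays the median was -0.99 and 0 values were positive, against a median of 0.02 over all genes so detected. The median ratio of the mutant to the wild-type response was 0.339 over the members. Of the 55 member probes 29 were called negative and 0 positive, where 2.58% and 2.48% of all detected probes were. The only probe with a positive value was the second Tsr1 probe, at 0.31 (adjusted p = 0.473 by limma in the fit over all probes). On the deposited values, normalized separately for each form, 12 members were called, against 1.84% of all genes called negative, and on median-scaled values 14, against 2.03%. With a replicate block within each form 25 were called, against 6.53% of all genes.

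The largest difference was in Ebna1bp2, whose response was 0.46 with mutant E12 and 2.05 with wild-type E12, a difference of -1.59 ± 0.29 (SE; adjusted p = 0.00556). A second, dimmer Ebna1bp2 probe, detected on 8 arrays, gave -0.49 (adjusted p = 0.158 in the fit over all probes). Nop58 differed by -1.56 ± 0.28 (SE; adjusted p = 0.0054), Nop56 by -1.53 ± 0.25 (SE; adjusted p = 0.00361) and Nop2 by -1.52 ± 0.24 (SE; adjusted p = 0.00317). Wdr74, with responses of 0.29 and 1.74 for mutant and wild-type E12, differed by -1.46 ± 0.33 (SE; adjusted p = 0.0175). The box C/D core and the large subunit factors thus hold the top of the order. By role, 3 of 3 box C/D proteins, 5 of 6 processome proteins and 6 of 11 large subunit factors were called, together with 2 of 3 polymerase subunits, 2 of 4 late small subunit factors, 1 of 2 H/ACA proteins and 1 of 4 chaperones.

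The 14 members that were not called ranged from -1.11 for Mrto4 to almost 0. Gar1 just missed the threshold at -0.90 ± 0.26 (SE; adjusted p = 0.0503), as did Mrto4 (adjusted p = 0.0614), whose untreated mutant arrays spread by 0.52 (SD). Ltv1 and Pes1, which rose least among the detected factors of their subunits apart from Nob1 and Rrs1, differed by -0.31 ± 0.19 and -0.33 ± 0.19. The smallest differences were those of Nolc1 (0.00 ± 0.24), Polr1c (-0.01 ± 0.31) and Npm1 (-0.30 ± 0.23). With an SE of 0.31 for Polr1c the arrays could not show a difference of moderate size.

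Across the 34 members the size of the response in mutant E12 cells followed that in wild-type E12 cells (Pearson's r = 0.775, Spearman's rho = 0.65). This is a description across genes, which are measured on the same arrays and are not independent. Over all 10050 genes r was 0.619. No member was called for a larger response with mutant E12.

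**Figure D4:**
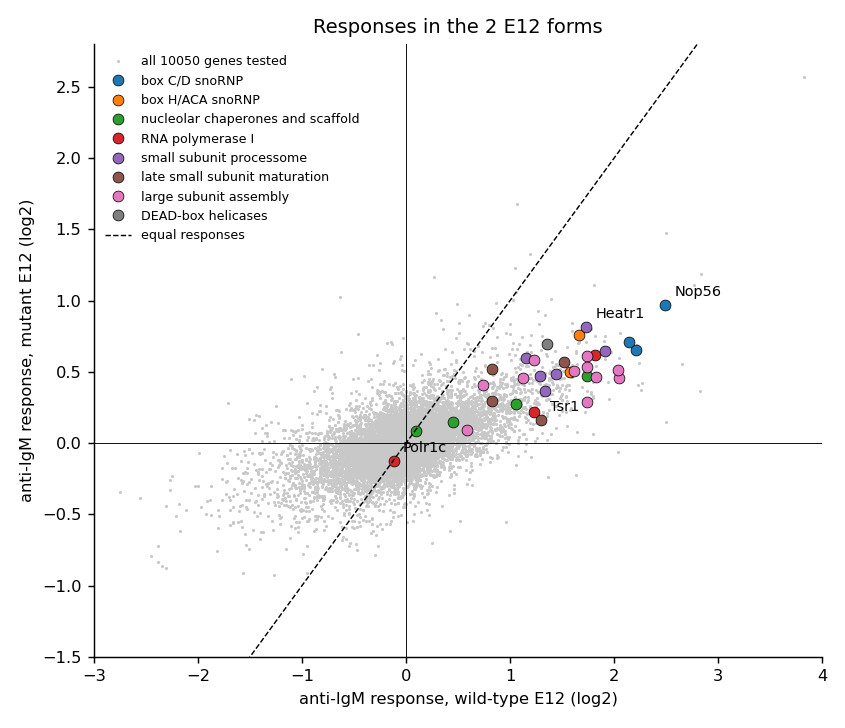
Log2 change with anti-IgM in mutant E12 cells (vertical axis) against that in wild-type E12 cells (horizontal axis) for all 10050 genes (grey) and the 34 factors, coloured by role. The dashed line marks equal responses. All but Polr1c and Nolc1, which lie at the line near 0, fall to its right, with Nop56 at 2.49 and 0.97.

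The forms were also compared directly after anti-IgM, on arrays that the interaction term uses as well. Of the 34 members 28 were lower in mutant than in wild-type E12 cells and 0 were higher, where 22.2% of all genes were lower and 21.3% higher. The median difference was -1.01 against -0.01 over all genes. Of the 55 member probes 47 were lower and 1 higher, against 21.3% and 18.8% of all detected probes. The higher one was the second Tsr1 probe, at 0.61 (adjusted p = 0.00425 in the fit over all probes). The mutant arrays lay below the wild-type arrays for 30 members, against 29.9% of all genes. The count was 15 on the deposited values, where the median of all genes shifts by 0.11 and 15.3% of all genes were lower and 31.7% higher. It was 22 with median scaling, where 21% of all genes were lower, and 0 members were higher under either. The forms cannot be told apart from the separate normalization of their arrays by the authors. With anti-IgM the 7 B cell markers summed to 58584 to 62166 with mutant E12 and 68550 to 71373 with wild-type E12 (3 lower, 0 higher), the 7 myeloid markers to 535 to 831 and 833 to 1204 (4 lower, 1 higher), and the 3 tested T cell markers to 1474 to 2176 and 863 to 1026 (1 lower, 2 higher). The 2 natural killer and cytotoxic genes summed to 730 to 2629 with mutant E12 and 1492 to 1999 with wild-type E12, which overlap (0 called). The part of these shifts was not tested.

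Pwp2 was furthest apart, at -1.76 ± 0.13, with Rrp12 at -1.64 ± 0.13, Nop58 at -1.59 ± 0.20, Nop56 at -1.57 ± 0.18 and Ddx21 at -1.53 ± 0.16. These 5 genes stayed lower in mutant E12 cells on the deposited and on the median-scaled values. A second, dimmer Pwp2 probe gave -0.46. Rrs1 was not well above background in mutant E12 cells (mean 5.95) and had 6.54 in wild-type E12 cells with anti-IgM. Computed against the limit of detection, the difference was at least 1.41-fold. Rrs1 is counted among the 28, but it passed the detection filter through wild-type arrays alone, so its lower mutant value adds no support. Of the 32 members detected on all 12 arrays 27 were lower, where 24.7% of all genes so detected were. The 6 members that were not called were Mrto4 (-0.52), Nob1 (-0.31), Pes1 (-0.29), Nolc1 (-0.14), Bop1 (-0.02) and Polr1c (0.05). Gar1 and Polr1a, at -0.85 and -0.57 here, stood at 0.06 and 0.05 on the deposited values.

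Without anti-IgM the forms differed in few members. The median difference was 0.01, as over all genes, with 3 members higher and 4 lower in mutant E12 cells, where 20.4% of all genes were higher and 22.2% lower. Those shares are no larger among the members than in the background. The 7 B cell markers summed to 62504 to 67336 with mutant E12 and 70552 to 88850 with wild-type E12 in these cells (5 lower, 1 higher). The 7 myeloid markers summed to 571 to 737 and 1017 to 2842 (4 lower, 0 higher). The 2 natural killer and cytotoxic genes summed to 691 to 1524 with mutant E12 and 3808 to 5857 with wild-type E12 (1 lower, 0 higher). The 3 tested T cell markers ran the other way, with 1551 to 2013 and 844 to 1335 (0 called). The part of these shifts was not tested. The higher members were Rrp1b (0.76 ± 0.13), Bop1 (0.63 ± 0.19) and Polr1a (0.44 ± 0.15), and the lower ones Npm1 (-0.87 ± 0.16), Ddx21 (-0.87 ± 0.16), Rrp12 (-0.70 ± 0.13) and Pwp2 (-0.50 ± 0.13). Untreated Npm1 was at 13.33, 13.21 and 13.56 with mutant E12, against 14.17, 14.32 and 14.24 with wild-type E12, and Ddx21 at 8.69, 8.63 and 8.80 against 9.74, 9.65 and 9.35. In both genes the untreated mutant arrays were all below the untreated wild-type arrays.

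The untreated counts also moved with the scale. On the deposited values, where the median of all genes shifts by 0.13, 15 members were higher and 2 lower, against 32.2% and 16.1% of all genes, with a member median of 0.40, and Npm1 turned to 0.11. With median scaling 10 were higher and 3 lower, against 24.8% and 21.5% of all genes, with a member median of 0.22. For Polr1a and Rrp1b the mean over all their detected probes gave -0.04 and -0.05, and another Polr1a probe stood at -0.92. Pwp2 lost its call with the mean of its probes (-0.12, limma's adjusted p = 0.496), and its second probe gave 0.26. Without untreated wild-type replicate 3, or without untreated mutant replicate 1, 1 member was higher.

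The other genes of the pathway, 105 tested, had positive medians in both responses. Their lists covered factors of both subunits, RNA polymerase I and the RNA exosome, and none was drawn up for snoRNPs, chaperones or helicases. In wild-type E12 cells 71 rose and 3 fell with anti-IgM, with a median of 0.74, where 15.1% of all genes rose and 16.2% fell. In mutant E12 cells 0 passed by limma, with a median of 0.21. There 31 were higher at an unadjusted p under 0.05, against 5.31% of all genes. The response was smaller with mutant E12 for 34 of the 105 and larger for 0, with a median of -0.53. Of all genes 3.46% were called negative and 3.48% positive. In mutant compared with wild-type E12 cells with anti-IgM, 4 were higher and 64 lower, where 21.3% of all genes were higher and 22.2% lower. Untreated, 11 were higher and 23 lower, shares no larger than the 20.4% and 22.2% of all genes.

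By role, 25 of 34 other processome genes rose in wild-type E12 cells and 0 fell. Nol10, Utp4 and Imp4, the last a U3 particle protein, led with 1.82, 1.76 and 1.57. Of 41 other large subunit factors 33 rose and 1 fell, led by Rrp15 (1.84), Nifk (1.83), which binds the proliferation antigen Ki-67, and Lyar (1.75), and the gene that fell was Nop53 (-0.64). Of 12 other RNA polymerase I genes 6 rose and 1 fell. Cd3eap, a polymerase I subunit, reached 1.74, Mybbp1a, a nucleolar MYB-binding protein, 1.46 and Polr1e, another subunit, 0.79, while Ttf1, the transcription terminator, fell by 0.32. Of 11 RNA exosome genes, whose complex trims ribosomal RNA ends, 5 rose and 0 fell, with Exosc2 (1.27), Exosc1 (1.05) and Exosc7 (1.02) first. Of 7 other late small subunit factors 2 rose, the methyltransferase Bud23 (0.82) and the kinase Riok1 (0.43), and 1 fell, the kinase Riok3 (-0.43).

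Few of the genes for the proteins of the ribosome itself were called. Among 50 tested genes whose symbols start as ribosomal protein names do, 2 rose and 6 fell in wild-type E12 cells with anti-IgM, with a median of -0.09. Of all genes 15.1% rose and 16.2% fell there. In mutant E12 cells 0 of the 50 passed by limma, with a median of -0.02 and 1 lower at an unadjusted p under 0.05. The genes that rose were Rps15a (0.72) and Rps19bp1 (1.13), which despite its symbol encodes a binding partner of a ribosomal protein. Rps15a was dim for this set, with 7.30, 7.12 and 7.24 with anti-IgM against 6.71, 6.47 and 6.30 untreated. The largest fall was that of Rpl22 (-0.96). Over the 12 arrays 30 of the 50 genes averaged above 14 on the log2 scale, against 0 of the 34 factors, and the medians of these averages were 14.52 and 9.62. Whether a rise would be compressed at such signals was not tested. For 0 of the 50 did the response differ between forms by limma (5 at an unadjusted p under 0.05), with a median difference of 0.11.

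**Figure D5:**
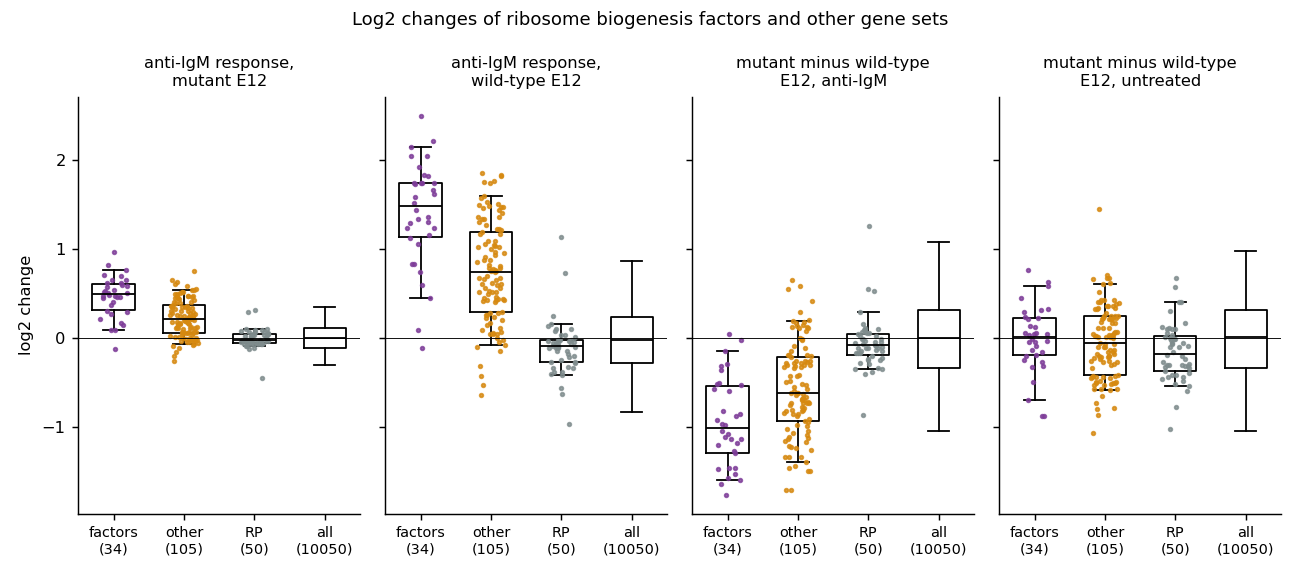
Log2 changes of the 34 factors, 105 other ribosome biogenesis genes, 50 genes with ribosomal protein symbols (RP) and all 10050 genes in 4 comparisons. Points are genes, boxes span the quartiles with the median, and whiskers the 5th to 95th percentile. The medians of the factors are 0.49, 1.48, -1.01 and 0.01 from left to right.

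Myc, whose protein is a known activator of ribosome biogenesis genes, rose by 1.64 ± 0.22 with anti-IgM in wild-type E12 cells (adjusted p = 6.37e-05). It had 8.46, 8.28 and 8.36 with anti-IgM, against 6.30, 6.89 and 6.99 untreated, with no overlap. In mutant E12 cells it had 6.60, 7.05 and 7.23 with anti-IgM, against 6.90, 6.49 and 7.26 untreated, which overlap, and the change was 0.08 ± 0.22 (adjusted p = 0.978). The responses differed by -1.56 ± 0.31 (adjusted p = 0.00847). Mxd4, which opposes MYC for the partner MAX, ran the other way, with -0.79 in mutant and -2.45 in wild-type E12 cells. Of the 9 tested MYC network genes Myc was the only one that rose and Mxd4 the only one that fell in wild-type E12 cells.

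Returning to the promoter windows, the 5 tested members with CACGTG had a median response of 1.30 in wild-type E12 cells, with Nop2 at 2.04 and Pes1 at 0.74 as the extremes. The 25 tested members whose window lacks it had a median of 1.66, from -0.12 for Polr1c to 2.49 for Nop56. The groups overlap over most of their range, and in mutant E12 cells their medians were 0.49 and 0.50.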

How the data were processed

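The values analysed were probe intensities of 12 Illumina arrays on a linear scale, as the authors deposited them. Values below 0, and medians of 6.93 to 6.94 on all 6 wild-type and 6.40 on all 6 mutant arrays, show that background had been subtracted and that each form was normalized on its own. The software behind this is not given in the sources used here. In a second table the names of 12 signal columns match no sample label, and they were not used.

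Groups came from the sample titles. The 12 arrays were brought to 1 distribution by quantile normalization, then log2(value + 50) was computed. A probe counted as detected above a limit set from each array's values below 0 (one-sided p of 0.01: 12.9 intensity units on wild-type and 15.6 to 15.7 on mutant arrays), on at least 3 arrays. Of 45281 probes, 34885 have 1 symbol in the platform annotation, 18 several and 10378 none. The brightest probe by mean stands for each gene, and probe positions were not used.

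Limma 3.58.1 in R 4.3.3 (lmFit, eBayes, two-sided) fitted 4 group means to 10050 genes, with 8 residual and 6.25 prior degrees of freedom, and p-values were adjusted within each of 5 comparisons. The number of arrays limits the precision. The fit was tested on simulated data. Alternatives were the deposited values without the joint step, median scaling, other offsets and detection filters, other rules for probes, array weights, replicate blocks, and leaving out each array.

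Arrays with the same replicate number deviated together in wild-type E12 cells (r of 0.289, 0.177 and 0.185 for the 3 pairs). Untreated replicate 2 with treated replicate 3 had r of 0.153 there, and untreated replicate 3 with treated replicate 2 had 0.121. The unmatched pairs with replicate 1 were negative. Whether the numbers pair treated with untreated cells is thus not known. The reported fit did not pair arrays, and replicate blocks were alternatives only. Arrays with the same number did not deviate together in every mutant pair (r of 0.608, -0.05 and 0.547), nor in any of 12 pairs across forms.

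The members, gene lists and motifs were chosen with earlier results of these data known. Arrays are given in full for the members with the largest and smallest wild-type response of each role, those not called there or called with mutant E12, and those with the largest and smallest difference of responses. Other lists name their 3 largest calls, and the text adds Mxd4 and the pathway and ribosomal protein genes that ran against their list, chosen after their values were seen.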

Additional observations from a re-analysis of the deposited data

Results flagged for a closer look

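The following 20 factors were picked out because their response to anti-IgM differed between the E12 forms by a test of the difference itself, limma's interaction term with an adjusted p under 0.05 over all 10050 genes. Each value is the mutant response minus the wild-type response in log2 units. In the box C/D and H/ACA snoRNPs the values were -1.56 for Nop58, -1.53 for Nop56, -1.44 for Rrp9 and -1.08 for Nhp2. Among large subunit factors they were -1.59 for Ebna1bp2, -1.52 for Nop2, -1.46 for Wdr74, -1.36 for Nip7, -1.20 for Ppan and -1.13 for Rrp1b. Among small subunit factors they were -1.26 for Pwp2, -1.14 for Tsr1, -0.96 for Noc4l, -0.95 for Wdr43, -0.95 for Rrp12, -0.92 for Heatr1 and -0.82 for Nop14. The nucleolar GTP-binding protein Gnl3 gave -1.27, and the polymerase subunits Polr1b and Polr1a gave -1.19 and -1.01. All 20 were called higher with anti-IgM in wild-type E12 cells, and 1 of them, Nop56, was also called in mutant E12 cells. Of the 24 alternatives run, all but that with only the 6 arrays of a comparison test this difference. The call of Nhp2 was lost under most of them, 17 (limma's adjusted p from 0.055 to 0.132). That of Noc4l was lost under 9 (0.052 to 0.123) and that of Heatr1 under 8 (0.058 to 0.104). Wdr74 lost its call under 3, Nip7 and Nop14 under 2 each, and Polr1b, Rrp9 and Tsr1 under 1 each, for Tsr1 with the mean of its 2 probes (-0.41).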

How the results depend on the processing

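The wild-type response kept its direction under each of the 24 alternatives run. In each, 31 or 32 members were called higher. Npm1 was the only member of the 32 that lost its call, under 10 alternatives. The median change was 1.32 on the deposited values, 1.33 with median scaling, 1.58 and 1.40 with offsets of 16 and 100, 1.55 over the 32 members detected on all 12 arrays and 1.29 with the mean of each gene's probes. The number of members called higher in mutant E12 cells, 1 as reported, was 5 on the deposited values, 5 with median scaling, 0 with an offset of 16 or 100, 3 without the detection filter, 0 with every probe tested, 2 with the mean of probes, 18 with array weights, 0 with only the 6 arrays of the comparison, and 0 to 6 when 1 array was left out. A replicate block within each E12 form gave 14 there, and left the wild-type count at 32; a replicate block over the 4 groups gave 1 and 32. Whether the numbers pair arrays is not known, so the blocked counts rest on a shared number only. The block within each form changed no other count of members called by over 1.5 times. Over all genes it gave 746 positive and 656 negative calls for the difference of responses, against 350 and 348 as reported, and 139 higher and 76 lower for the mutant response, against 19 and 4. The difference of responses was called for 12 members on the deposited values and for 14 to 27 under the other alternatives, and 11 of the 20 kept their call under all. Mutant against wild-type E12 with anti-IgM gave a median of -0.36 and 15 lower calls on the deposited values, and a median of -0.54 with median scaling. On the deposited values Gar1 and Polr1a reversed to 0.0577 and 0.046. In untreated cells the member median was 0.40 and 0.22 on the deposited and median-scaled values, with 15 and 10 higher calls, and 2 lower calls on the deposited values. The mean of probes gave 1 higher call, and leaving out 1 array gave 1 to 4. Npm1 reversed to 0.107 on the deposited values, and Polr1a and Rrp1b to -0.0404 and -0.0529 with the mean of probes. Over all genes the deposited values gave 3181 higher and 1536 lower calls with anti-IgM, and 3241 higher and 1614 lower untreated, against 2136 and 2232, and 2050 and 2233, as reported. The cause of these shifts was not tested, beyond the construction of each alternative. Signal near background limits Nolc1 and Rrs1.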
